A study of Mus musculus with 4 samples.

Results

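The Schlafen family of the mouse was followed through RNA from colon epithelium as 7 genes, Slfn1, Slfn2, Slfn3, Slfn4, Slfn5, Slfn8 and Slfn9. The members were chosen by name, and 6 of the 7 were among the 25796 genes listed, with 22 of 87526 listed transcripts. Slfn1 was not listed and has no level here. For each gene the transcript with the highest mean over the 4 libraries was kept, so the mean levels of the members chose the transcripts and are given as a description. All 4 libraries were made from total RNA of epithelial cells detached from mouse colon with a chelating buffer, 2 labelled WT (WT 1 and WT 2) and 2 labelled Ythdf1 KO (KO 1 and KO 2). They are the inputs of an immunoprecipitation of RNA that carries the base modification m6A, taken before any enrichment. Ythdf1 encodes a cytoplasmic protein that binds m6A, and the comparison asks which RNAs differed in level between epithelium labelled as having and as lacking it. No source used here gives the strain, age or sex of the mice, the altered part of Ythdf1, or says whether each library had a mouse of its own. The p-values therefore describe the scatter of these 4 libraries and no more, and that scatter may be technical.

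Schlafen proteins share a core domain with similarity to RNA-cutting enzymes and are grouped by length. Slfn1 and Slfn2 are short, Slfn3 and Slfn4 are of middle length, and Slfn5, Slfn8 and Slfn9 are long and also carry a helicase-like part. Several members are induced by type I interferon, and the family is best known from T cells and macrophages, where members restrain growth and activation. Slfn3 has been studied in gut epithelium, where it was linked to the differentiation of enterocytes.

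The 6 listed members lay in 1 cluster on chromosome 11 of the mm10 build, from 82951349 to 83215154, a stretch of 264 kb that also holds the listed genes Slfn10-ps and Gm38922. Slfn5, Slfn2, Slfn4 and Slfn3 run on the plus strand and Slfn9 and Slfn8 on the minus strand. RefSeq gave the promoters of all 7 members (GRCm38.p6), with 1 window per member and 2 for Slfn8, and the 250 bases before the start of each window's transcript were searched on both strands. Other listed transcripts of Slfn4, Slfn5, Slfn8 and Slfn9 start elsewhere, and their starts were not searched. The family fell into 2 sets by the letters found there. The letters ACTTCCTGG, which hold the core that ETS transcription factors recognise, stood before Slfn1, Slfn2, Slfn3 and Slfn4, 4 of 7 members, against 0.829% of 27025 genes with a promoter in the table. That motif was chosen after these promoters had been read, so the count is a description. The pattern GAAANNGAAA, the core of the element through which interferon-activated factors bind, stood before Slfn5, Slfn8 and Slfn9, against 3.46% of all genes. The pattern TTCNNNGAA, recognised by STAT factors, stood before 0 of the 7, against 8.13% of all genes. The letters TGACTCA, recognised by AP-1, stood before Slfn4 alone, against 5.16% of all genes. No overlap between motifs occurred in the sequences printed. A match is no evidence that a factor binds, and a missing match says only that these letters are not in the window.

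The stretches around the ETS-like matches, lined up on those letters in capitals, are shown for the short and middle-length members. They lie at chr11:83116726-83116774 for Slfn1, chr11:83065037-83065085 for Slfn2, chr11:83191268-83191316 for Slfn3 and chr11:83175093-83175141 for Slfn4, all on the plus strand.
Slfn1: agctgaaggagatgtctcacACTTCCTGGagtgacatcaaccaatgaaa
Slfn2: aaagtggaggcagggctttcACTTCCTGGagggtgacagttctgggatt
Slfn3: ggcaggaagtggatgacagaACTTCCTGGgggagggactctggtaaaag
Slfn4: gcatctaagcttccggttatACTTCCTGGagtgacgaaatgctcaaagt
The match began 74, 55, 42 and 73 bases before the annotated start in the same order. Over the whole 250 bases the 6 pairs among these 4 genes were 47 to 51.2% identical, close to the median of 49.7% over all 21 pairs of members.

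The corresponding stretches of the long members carry the interferon-type pattern in capitals, at chr11:82951927-82951976 (plus strand) for Slfn5, chr11:83020829-83020878 (minus strand) for Slfn8 and chr11:82991846-82991895 (minus strand) for Slfn9.
Slfn5: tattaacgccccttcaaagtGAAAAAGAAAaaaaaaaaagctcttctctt
Slfn8: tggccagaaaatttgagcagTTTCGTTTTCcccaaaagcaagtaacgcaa
Slfn9: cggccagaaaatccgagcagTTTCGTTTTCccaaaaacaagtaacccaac
The Slfn5 match lies inside the span of XM_006533574.2, the transcript whose level is reported here, which starts further upstream at 82951349. In Slfn8 and Slfn9 the pattern reads on the opposite strand, 48 and 45 bases before the annotated start used in the search. These 2 upstream stretches of 250 bases were 80.2% identical in a global alignment, while the next most alike of the 21 pairs of members, Slfn3 and Slfn8, reached 53.4%. The transcript sequences of Slfn8 and Slfn9 were not compared. Whether reads were split between these 2 genes was not tested, and their counts carry that uncertainty.

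Because Slfn4 was the member with by far the most reads, the sequence before it is shown in full up to the left end of its longest transcripts, at chr11:83174936-83175171 on the plus strand, with the ETS-like and the AP-1 letters in capitals.
Slfn4: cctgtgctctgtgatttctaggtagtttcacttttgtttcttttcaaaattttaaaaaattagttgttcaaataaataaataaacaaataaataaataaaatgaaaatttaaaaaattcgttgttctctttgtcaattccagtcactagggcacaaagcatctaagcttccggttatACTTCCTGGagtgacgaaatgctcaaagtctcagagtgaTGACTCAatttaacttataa
The AP-1 letters began 34 bases before the annotated start used in the search, 83175186, which lies beyond the end of the printed stretch. The interferon-type pattern was not found in this window.

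The deposited values are normalised read counts, which are reads divided by a size factor per library, and the most abundant transcripts of all genes held 21686140 to 30951138 reads per library. Ythdf1 itself was higher in the libraries labelled KO, 1088 and 775.4 in WT against 1752 and 1737 in KO, a ratio of 1.87. DESeq2 called it higher (adjusted p = 0.011), q was 0.0145 in the authors' deposited table, and limma-trend did not call it (adjusted p = 0.759). All directions below therefore follow the labels and not a checked genotype.

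All 12 epithelial markers were above 0 in every library. In both libraries labelled KO, 2 of them (Epcam and Krt18) lay above and 2 (Car1 and Cdx2) below both WT libraries, where 14.3% and 21.4% of all genes did. Each marker had a mean of at least 500, and of all genes at that level 22.7% lay above and 12.8% below. Epcam lay between 29956 and 33790, and Krt18, a keratin, stood at 7320 and 7023 in WT against 8397 and 7903 in KO. The carbonic anhydrase Car1 stood at 102727 and 116128 against 73552 and 42374. It was the only epithelial marker called by DESeq2 (adjusted p = 0.00749), with q = 0.214 in the authors' deposited table. Most markers of blood cells had few reads. The 12 listed of 14 myeloid markers summed to 2049 in WT 1, 2001 in WT 2, 1085 in KO 1 and 2500 in KO 2, with 3 of them at 0 in KO 1 and 2 in KO 2. Most of the sum in KO 2 came from Ly6g (1046) and Cd14 (655.9). The macrophage lysozyme Lyz2 had 47.34 in WT 1, 73.7 in WT 2 and 0 in KO 1 and KO 2. DESeq2 called it lower (adjusted p = 0.0399), with q = 0.0607 in the authors' deposited table. The 11 listed of 14 T and NK cell markers summed to 920.9 in WT 1, 1112 in WT 2, 1152 in KO 1 and 525.3 in KO 2, with 1 above and 2 below. Zap70, a kinase of T cell receptor signalling, stood at 23.67 and 1.01 in WT against 256.9 and 103.4 in KO. The protease Gzma stood at 54.1 and 203.9 against 4.847 and 0, and the CD4 co-receptor Cd4 at 67.63 and 169.6 against 0 and 0, and DESeq2 called both lower (adjusted p = 0.0378 and 0.00221). The 5 listed of 8 B and plasma cell markers summed to between 4793 and 7764, mostly Sdc1, which epithelium also expresses and which stood at 4649 and 4871 against 5651 and 7617, with none of the other 4 separating the groups. The 14 markers of stroma, vessels and nerves summed to 1608 and 3617 in WT and 1955 and 1183 in KO, with 4 below in both libraries labelled KO. The fibroblast receptor Pdgfra stood at 276.2 and 349.3 against 17.45 and 78.58 and was called by DESeq2 (adjusted p = 0.0327). Over all genes DESeq2 made 1431 calls, 414 of them higher in the libraries labelled KO. S100b, of glia, stood at 118.4 and 48.46 against 40.72 and 8.272, Myh11, of smooth muscle, at 385.5 and 324.1 against 264.7 and 65.35, and Cdh5, of vessels, at 153.3 and 150.4 against 105.7 and 80.24. In bulk RNA, fewer cells of a type and less RNA per cell cannot be told apart.

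Slfn4, a middle-length member known from macrophages and induced by interferon, was the clearest of the family. It stood at 4363 in WT 1 and 5144 in WT 2, and at 8478 in KO 1 and 7487 in KO 2. Both libraries labelled KO lay above both WT libraries, and the gap between the groups was wider than the gap within either. The group means were 4754 ± 552 in WT and 7982 ± 701 in KO (SD, n = 2 each), a ratio of 1.68. These values rest on 3871, 5095, 8745 and 9051 recovered reads.

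Slfn4 passed the threshold in some tests and not in others. limma-trend gave a log2 difference of 0.75 ± 0.17 (SE), with an unadjusted p = 0.00377 and, over all 23116 genes tested, an adjusted p = 0.759. edgeR on the recovered reads gave 0.77 with an adjusted p = 0.833, and DESeq2 on the same reads called it at 0.76 ± 0.15 (SE, adjusted p = 0.000166). For this transcript a log2 fold change of 0.75 with q = 0.000182 stands in the authors' deposited table. The log2 difference lay between 0.63 and 0.87 under all 14 alternative settings, including the removal of each library in turn.

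All 7 listed transcripts of Slfn4 showed the same order. They share most of their reads and are not independent. Each was higher in KO 1 and KO 2 than in either WT library, with ratios between 1.67 and 1.85. The highest ratio belonged to XM_006532664.2, the transcript whose left end lies furthest inside the gene, with 2282 and 2879 in WT against 5068 and 4489 in KO. In the authors' deposited table the q-values of the 7 transcripts ran from 4.55e-05 to 0.000245.

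Markers of myeloid cells, in which Slfn4 is known, differed among themselves across the libraries. Csf1r, the receptor of a macrophage growth factor, stood at 255.9 in WT 1, 172.6 in WT 2, 312.2 in KO 1 and 100.9 in KO 2, and the macrophage marker Cd68 at 138.6, 105, 245.3 and 1.654. Both were highest in KO 1, as Slfn4 was, and no other listed myeloid marker was. Adgre1 stood at 103.7, 29.28, 0 and 24.8 in the same order. C1qa stood at 75.52, 12.12, 1.939 and 85.2, and C1qb at 101.4, 27.26, 52.35 and 2.48. The neutrophil marker Ly6g stood at 542.2, 463.4, 122.2 and 1046 in the same order, and Cd14, a receptor of monocytes, at 515.1, 540.1, 280.2 and 655.9. Both were lowest in KO 1 and highest in KO 2. Of the 12 listed myeloid markers, 0 lay above and 3 (Lyz2, Adgre1 and S100a9) below in both libraries labelled KO, where 14.3% and 21.4% of all genes did. The part of these markers' cells in the Slfn4 result was not tested.

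Slfn3, its immediate neighbour and the other middle-length member, was near the lower limit of what these libraries resolve. It stood at 73.26 in WT 1, 11.11 in WT 2, 70.77 in KO 1 and 40.53 in KO 2, from 65, 11, 73 and 49 reads. WT 1 was the highest library and WT 2 the lowest, so the groups overlapped completely. In limma-trend it differed by 0.86 ± 1.8 (SE) on the log2 scale (adjusted p = 0.954), and without WT 2 it turned to -0.44.

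Slfn2, the short member that keeps T cells and monocytes at rest, was also low and scattered. It stood at 90.17 in WT 1 and 2.019 in WT 2, which is 2 reads, against 137.7 in KO 1 and 67.83 in KO 2. The groups overlapped, because WT 1 lay between the libraries labelled KO. The log2 difference of 2.56 ± 2.16 (SE) had an adjusted p = 0.82 in limma-trend. It was 1.18 in edgeR and 1.17 in DESeq2, 0.10 without WT 2 and 5.02 without WT 1.

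Among the long members Slfn5, a nuclear protein induced by interferon, had the largest ratio of group means and little separation of libraries. It stood at 73.26 in WT 1 and 361.4 in WT 2, against 588.5 in KO 1 and 370.6 in KO 2. The groups did not overlap, but WT 2 and KO 2 were nearly equal and WT 1 alone was low. The means were 217.4 ± 204 and 479.5 ± 154 (SD, n = 2 each), a ratio of 2.21. limma-trend gave a log2 difference of 1.51 ± 0.84 (SE) with an adjusted p = 0.765, and the difference was 0.37 without WT 1.

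The 8 listed transcripts of Slfn5 showed how narrow that separation was. For 5 of them WT 2 stood at 360.4 and KO 2 at 361.5, which is 357 and 437 reads before scaling. The shorter XM_006533579.1 and XM_006533580.1 had fewer reads and a wider gap, with 194.9 and 232.2 in WT 2 against 305.2 and 314.3 in KO 2. The antisense gene Slfn5os overlaps Slfn5 in RefSeq and was not listed, and it is not stated whether counting used strand, so antisense reads cannot be told apart.

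Slfn9, another long member, was high in a single library. The WT libraries gave 630.1 and 530, and KO 1 gave 557.5, which lay between them, while KO 2 reached 1447. The ratio of means of 1.73 therefore came from KO 2, and the log2 difference of 0.64 ± 0.50 (SE, adjusted p = 0.819 in limma-trend) became -0.05 without that library. The second transcript, NM_172796.2, showed the same pattern at lower values, 406.9 and 349.3 against 392.6 and 747.8.

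Slfn8, the long member whose promoter resembles that of Slfn9, was low throughout. It stood at 64.25 in WT 1 and 3.029 in WT 2, which is 3 reads, against 62.05 in KO 1 and 52.94 in KO 2. WT 1 was the highest library and WT 2 alone was low, so the groups overlapped. The log2 difference was 1.85 ± 2.23 (SE, adjusted p = 0.875 in limma-trend) and -0.16 without WT 2. Its transcript NM_001167743.1 stood at 6.786 in KO 1, where NM_181545.4 stood at 62.05, while the other 3 libraries gave both transcripts the same values.

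**Figure D1:**
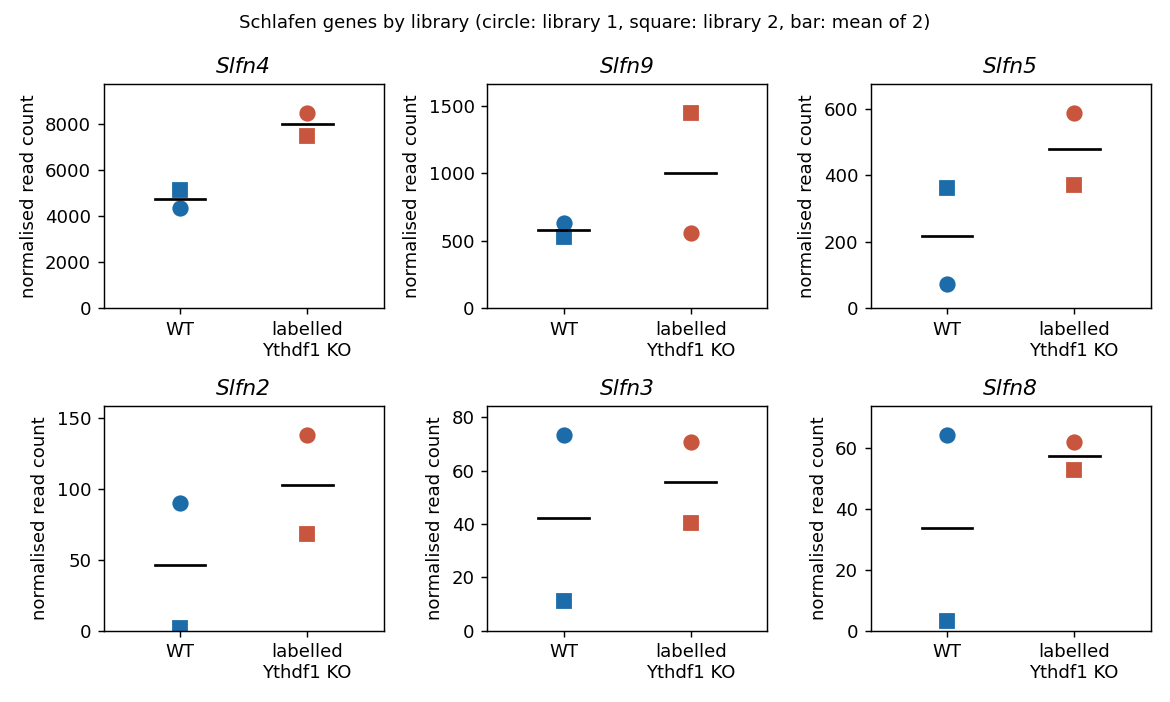
Normalised read count (vertical axis, linear from 0, own scale per gene) of the 6 listed Schlafen genes in the WT libraries (blue) and the libraries labelled Ythdf1 KO (red). Circles are library 1, squares library 2 and bars the mean of both. Slfn4 separates the groups with a gap wider than that within them (4363 and 5144 against 8478 and 7487), Slfn5 separates them narrowly, and the other 4 genes overlap.

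As a family, the 6 listed members all had positive log2 differences, where 45.1% of all genes tested had one, and in all 6 the lowest library was a WT library, where that held for 39.9% of all genes. The median log2 difference of the members in limma-trend was 1.19, against -0.09 over all genes tested. For the members it was 0.81 in edgeR, 0.79 in DESeq2 and 0.31 without WT 2. This library was the lowest for Slfn2, Slfn3, Slfn8 and Slfn9, and WT 1 was the lowest for Slfn4 and Slfn5. Of the 6 members, 2 were higher in both libraries labelled KO than in either WT library, where 14.3% of all genes did, and 0 were lower in both, where 21.4% were. All 6 passed the filter on low values.

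limma-trend called 0 of the 6 members, and 0 (0%) of 23116 genes, at an adjusted p of 0.05. At an unadjusted p under 0.05 it found 1257 genes (5.44%), of which Slfn4 was the only member. edgeR called 0 of 23404 genes (0%), with 1073 (4.58%) at an unadjusted p under 0.05. DESeq2 called Slfn4 alone of the 6 members, where 1.88% of the genes with an adjusted p were called higher in the libraries labelled KO. The authors' deposited table likewise has q under 0.05 for Slfn4 alone, where 1.24% of all genes were called higher there by their most abundant transcript.

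The differences in scatter among the members went with their levels. Of the 8205 genes with a mean between 25 and 100, where Slfn2, Slfn3 and Slfn8 lay, 90.5% had a highest library at least 5 times the lowest, and in 54.1% the WT libraries alone differed by that much. Slfn2 differed 68.2-fold between its highest and lowest library, Slfn8 21.2-fold and Slfn3 6.6-fold. Of the 6394 genes with a mean between 100 and 500, where Slfn5 lay (8.03-fold), 32.5% reached 5 times. Between 500 and 2000, where Slfn9 lay (2.73-fold), 0.911% did. Slfn4, at 1.94-fold, sat among genes with a mean of 2000 to 10000, for which the median was 1.39-fold.

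**Figure D2:**
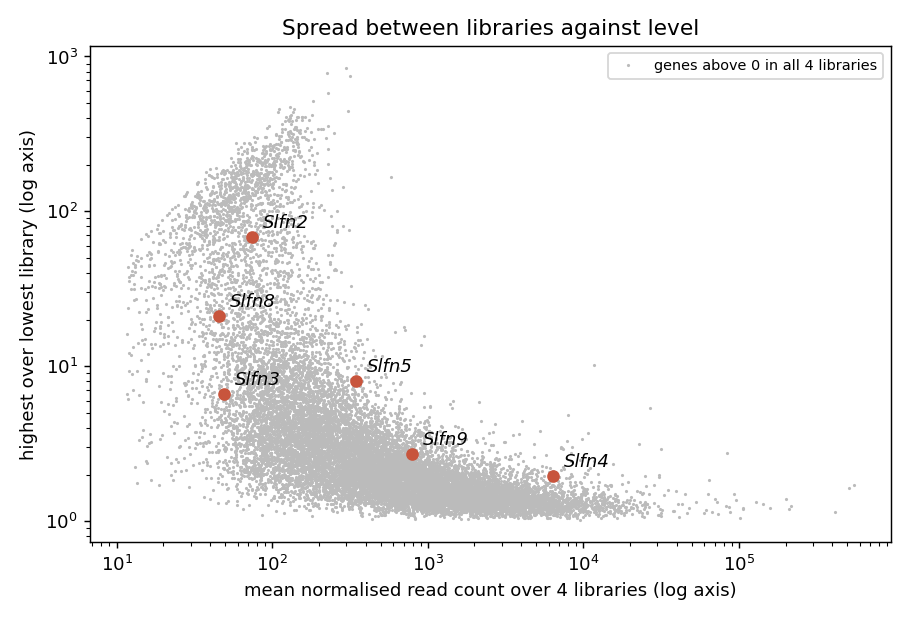
Highest over lowest of the 4 libraries (vertical log axis) against the mean normalised read count (horizontal log axis), with grey points for genes above 0 in all libraries and red points for the 6 listed Schlafen genes. Slfn2, Slfn3 and Slfn8 lie at means of 25 to 100, where 90.5% of all genes differ at least 5-fold between libraries. That share counts genes with a library at 0, which are not drawn. Slfn4 lies at a level where the median gene differs 1.39-fold.

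Genes induced by interferon, the signal that induces several Schlafen genes, were mostly higher in the libraries labelled KO, without any passing limma-trend. Of 34 such genes, all listed and tested, 16 were higher in both libraries labelled KO than in either WT library and 1, Mx2, was lower (14.3% and 21.4% of all genes). A positive log2 difference was found for 29, and the median was 0.40. limma-trend gave an unadjusted p under 0.05 for 7 of them (5.44% of all genes) and called 0 (0%). DESeq2 called 5 higher (1.88% of the genes with an adjusted p) and 0 lower. Over all genes it made 1431 calls, 414 of them higher. In the authors' deposited table q was under 0.05 for 4 of the 34, all higher (1.24% of all genes). Among genes with a mean of at least 500, 9 of 20 interferon-induced genes lay above and 0 below, where 22.7% and 12.8% of 7431 genes did, with medians of 0.31 and 0.07. The median of the 34 genes was 0.22 without WT 1 and 0.72 without WT 2.

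The interferon-induced genes of largest difference were Ifit2, Ifi44, Rtp4 and Isg15. Ifit2, which binds viral RNA, stood at 74.39 and 321.1 in WT against 554.5 and 629.5 in KO, with WT 1 far below WT 2 as for Slfn5. Ifi44 stood at 55.23 and 86.83 against 219.1 and 274.6. Rtp4, a chaperone of receptor transport, stood at 347.2 and 258.5 against 836.7 and 771.7, a ratio of 2.66 with a log2 difference of 1.42 ± 0.39 (SE). Isg15, a ubiquitin-like modifier, stood at 606.4 and 399.8 against 1162 and 977.7. The choice took only genes whose groups did not overlap, and in each of these both libraries labelled KO were the higher. None passed limma-trend (adjusted p = 0.759 for each). The library order of Slfn4, lowest in WT 1, then WT 2, KO 2 and KO 1, was shared by Slfn5, by 5 of the 34 interferon-induced genes and by 3.4% of all genes.

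**Figure D3:**
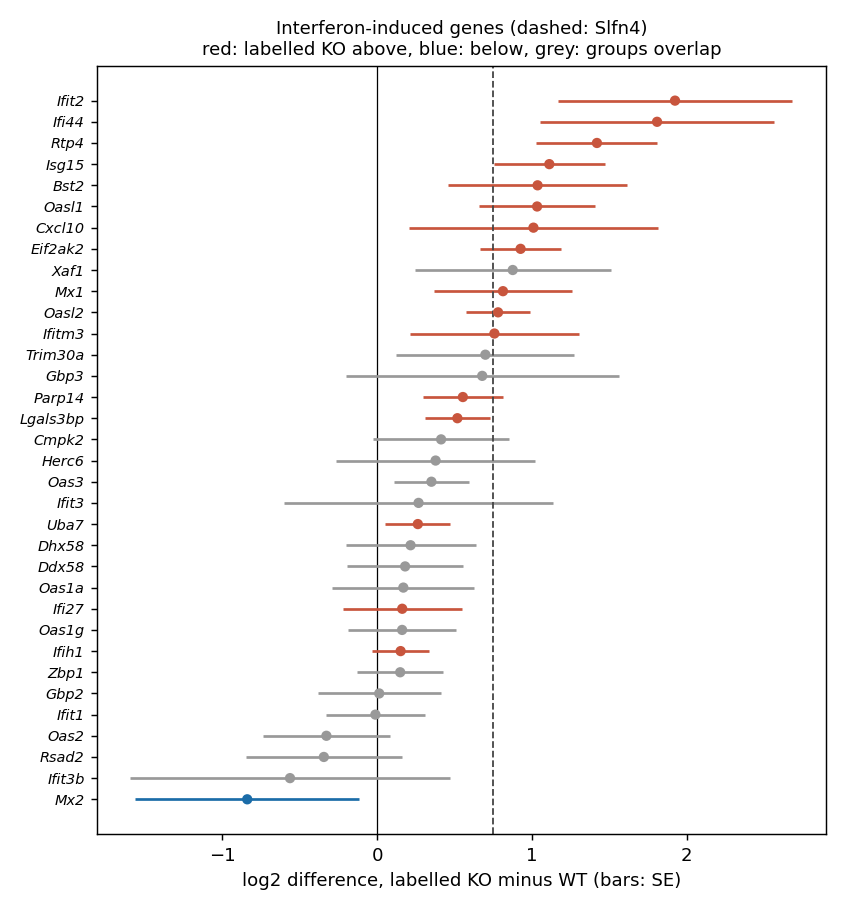
Log2 difference (labelled KO minus WT, horizontal axis) of the 34 interferon-induced genes, with bars for the SE from limma-trend, red where both libraries labelled KO lay above both WT libraries (16 genes), blue where both lay below (1 gene) and grey where the groups overlapped. The dashed line marks Slfn4 at 0.75.

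Receptors and signalling proteins of the interferon pathway lay on both sides of the WT libraries. Of 20 genes tested, 7 lay above and 4 below (14.3% and 21.4% of all genes), with a median of 0.14 and 0 called in limma-trend. Most of them had a mean of at least 500, and of all genes at that level 22.7% lay above and 12.8% below. Both chains of the type I interferon receptor were on the lower side. Ifnar1 stood at 1371 and 1398 in WT against 893.9 and 1007 in KO, and Ifnar2 at 125.1 and 112.1 against 25.21 and 71.96. Il10rb, a chain of the receptor of type III interferon, stood at 785.6 and 877.4 against 1295 and 1868. It was the only gene of this list called by DESeq2 (adjusted p = 0.0136), where 1.88% of the genes with an adjusted p were called higher. Ifnlr1, the other chain of the type III receptor, lay the other way, at 1110 and 991.4 against 629.2 and 844.5. Irf3, a transcription factor that starts interferon production, stood at 867.9 and 1025 against 1401 and 1411.

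Other gene groups tied to the functions of the family showed no common direction. Of 12 quiescence factors, set beside Slfn2, 4 lay above and 2 below (14.3% and 21.4% of all genes), and limma-trend called 0. Each had a mean of at least 500, and of all genes at that level 22.7% lay above and 12.8% below. Their median of 0.01 turned to -0.06 with quantile normalisation, -0.08 without WT 2 and -0.04 without KO 1. Foxp1, a transcription factor of resting lymphocytes and other cells, stood at 4279 and 3779 against 5288 and 6182. Klf4 stood at 41418 and 37807 against 45162 and 56697, Btg2 at 5950 and 5518 against 7728 and 6272, and Tsc1, an inhibitor of growth signalling, at 1639 and 1820 against 1311 and 1245. Their differences were smaller than that of Slfn4 on the log2 scale, 0.51 for Foxp1 against 0.75, and DESeq2 and the authors' deposited table called Foxp1 alone of the list.

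Enterocyte differentiation genes, set beside Slfn3, included 1 above and 4 below of 12 (14.3% and 21.4% of all genes), with 0 called by limma-trend or DESeq2. Their median of 0.06 turned to -0.02 with quantile normalisation, -0.01 without WT 2 and -0.14 without KO 2. Most of these genes had a mean of at least 500, and of all genes at that level 22.7% lay above and 12.8% below. The brush border enzyme sucrase-isomaltase, Sis, stood at 338.1 and 469.5 against 212.3 and 118.3, and the transcription factor Cdx2 at 9105 and 10439 against 8698 and 6526. Slc2a2, a glucose transporter, stood at 144.3 and 47.45 against 13.57 and 45.49. Hnf4a, another enterocyte transcription factor, stood at 22940 and 25375 against 25619 and 29424.

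The genes around the cluster lay on both sides of 0. Within 500 kb of the outermost members 32 other genes were listed and 30 tested, with a median log2 difference of -0.30, 1 gene above and 4 below (14.3% and 21.4% of all genes). That median was -0.05 with quantile normalisation, 0.0062 without KO 1, -0.09 without KO 2 and -1.80 without WT 2. These genes include the Schlafen relatives Slfn10-ps, at -2.62 ± 2.82 (SE), and Slfn14, at 0.30 ± 3.34 (SE). The gene above was Ccl6, a chemokine 413 kb from Slfn4, which stood at 1435 and 1317 in WT against 2008 and 1868 in KO. Those below, Fndc8, Heatr9, E230016K23Rik and the chemokine Ccl3, had no value over 158 in any library. Heatr9 had 157.8 and 95.91 in the WT libraries against 0.969 and 0, and was the only neighbour called by DESeq2 (adjusted p = 0.00391) and in the authors' deposited table (q = 0.00458). DESeq2 made 1431 calls over all genes, 414 of them higher in the libraries labelled KO. Other better measured genes near the cluster overlapped between the groups, among them the DNA ligase Lig3 at 1354 and 1014 against 1100 and 1319, and Ap2b1, a subunit of the clathrin adaptor, at 3203 and 4596 against 4257 and 4616.

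**Figure D4:**
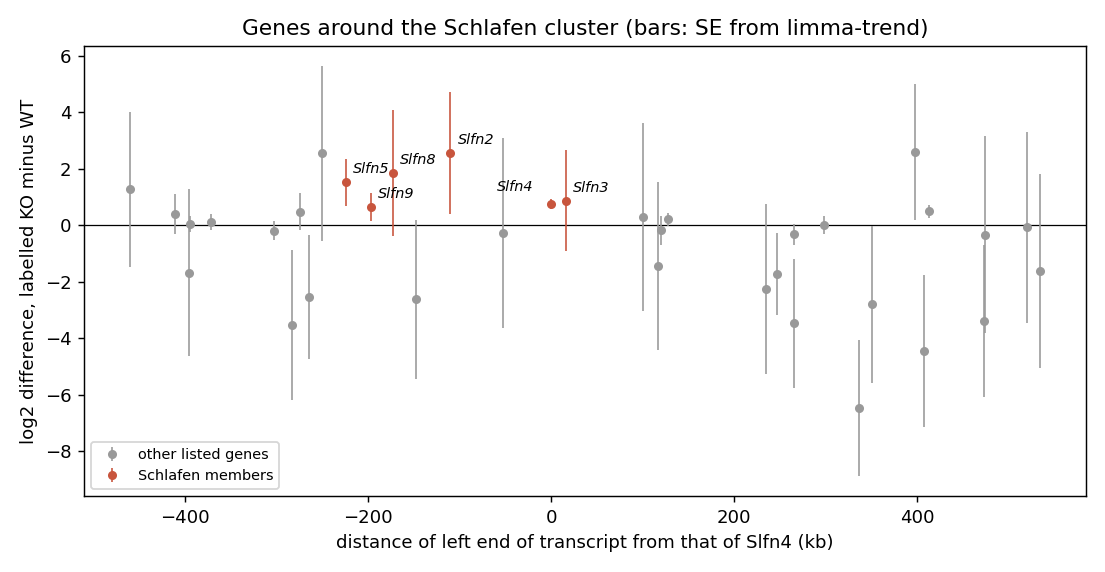
Log2 difference (labelled KO minus WT, vertical axis) against the distance in kb between the left end of each transcript and that of Slfn4, with bars for the SE from limma-trend, red for the 6 Schlafen members and grey for 30 other genes within 500 kb. All members lie above 0, with SE from 0.17 for Slfn4 to 2.23 for Slfn8, and the other genes have a median of -0.30. The relatives Slfn10-ps and Slfn14 are among the other genes.

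The genes whose values over the 4 libraries were most like those of Slfn4 included an interferon-induced gene. Likeness was the root mean square difference of log2 values after centring each gene, over 4 libraries and the 7430 other genes whose mean reached 500. The nearest were Mptx1, a mucosal pentraxin, at 0.027, Oasl2, an oligoadenylate synthetase-like protein, at 0.035, and Eya3 at 0.04. Mptx1 stood at 5326 and 6418 in WT against 10118 and 9350 in KO, Oasl2 at 2067 and 2590 against 4235 and 3736, and Eya3 at 963.7 and 1211 against 1864 and 1719. With 4 libraries many genes come close, and 29 lay within 0.1 of Slfn4.

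**Figure D5:**
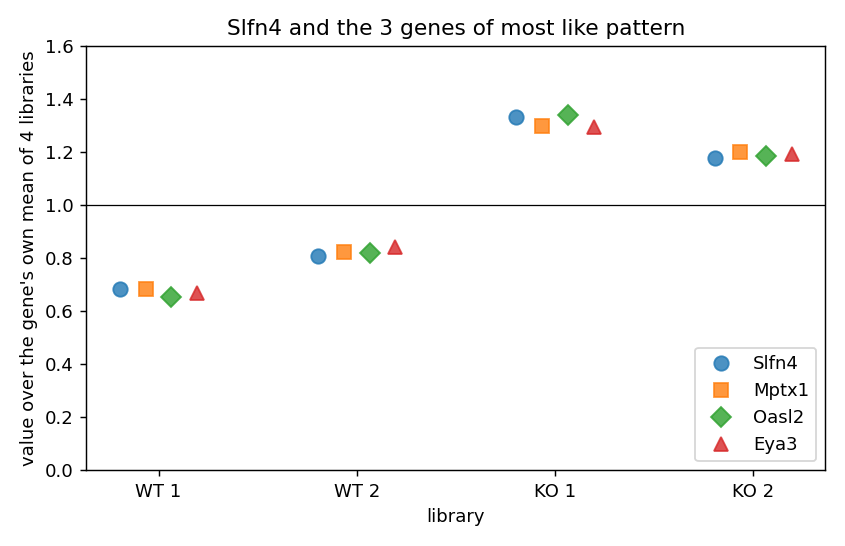
Value of Slfn4, Mptx1, Oasl2 and Eya3 in each library over the gene's own mean of the 4 libraries (vertical axis, linear from 0). All 4 genes are lowest in WT 1 and highest in KO 1, as the choice by likeness sets.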

How the data were processed

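The submitters' processing notes name build mm10 and, with no roles, HOMER 4.10, MACS2 2.1.0, Bowtie2 2.2.5, deepTools 3.3.0, SAMtools 1.3.1 and CASAVA 1.8; which program counted or compared is not given in the sources used. The deposited signal of a transcript is its reads divided by a size factor: 100% of values were whole multiples (within 0.001) of the library's lowest value above 0, so reads could be recovered. One read was worth 0.827 (KO 2) to 1.13 (WT 1). The lowest listed mean was 11.6. Isoforms each count shared reads. The log2 fold change, p-value and q-value columns are the authors', per the file headers.

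For each gene the transcript of highest mean was used. Genes reaching 1 in 2 or more libraries were fitted as log2(value + 1), with limma-trend 3.58.1 (robust, R 4.3.3), and Benjamini-Hochberg adjustment ran over all of them (threshold 0.05). Differences are on that scale, where the added 1 shrinks changes of low genes but a library near 0 widens them: for Slfn2, Slfn3 and Slfn8 they exceed those of edgeR. The plan had not named the unit, a signal. edgeR 4.0.16 and DESeq2 1.42.0 ran on recovered reads as alternatives. The fit was also run on simulated data, with changes larger than that of Slfn4 placed only in genes of high mean. That run does not show how well the fit finds differences like those of the members. Transcript lengths were not used here, so levels are not compared between genes.

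The members and 9 gene lists (140 entries, 132 listed) were chosen with earlier results of these data known. Named from each list were up to 4 genes of largest difference with a mean of at least 50 whose groups did not overlap, and all neighbours within 500 kb whose groups did not overlap. Mx2, the myeloid markers, Ifnlr1, Lig3 and Ap2b1 were chosen after their values were seen.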

Additional observations from a re-analysis of the deposited data

How the results depend on the processing

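The number of genes called was 0 in limma-trend and also with summed transcripts, other pseudocounts, other filters, quantile normalisation and edgeR, but 524 without a trend and 1431 in DESeq2. It ranged from 0 to 36 with each library left out, the highest without KO 1. The median difference of the 6 members, 1.19, was 1.98 with quantile normalisation, 0.81 in edgeR and 0.79 in DESeq2. It ranged from 0.31 to 1.55 with each library left out. Slfn3 (-0.44) and Slfn8 (-0.16) turned without WT 2 and Slfn9 (-0.052) without KO 2, each of which holds the extreme value of that gene. With each library left out they ranged from -0.44 to 2.17, from -0.16 to 3.86 and from -0.052 to 1.32. Slfn2, Slfn4 and Slfn5 kept their direction under all 14 alternatives, and Slfn4 passed the threshold in DESeq2 only. With the replicate number as a block the count of calls was 0 and the median 1.19; the numbers share no stated source, and deviations of same-numbered libraries correlated at 0.0225 over 7431 genes, so the libraries were not treated as pairs. Slfn2, Slfn3 and Slfn8 had 2, 11 and 3 reads in WT 2 and 80, 65 and 57 in WT 1, which has fewer reads in all; counts this low limit what can be said of them.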

Other observations

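Further relatives of the family were listed besides the members named above. Slfn10-ps, a transcribed pseudogene between Slfn8 and Slfn2, stood at 87.92 and 67.64 in WT, at 0 in KO 1 and at 161.3 in KO 2. Slfn14, a long member known from the red cell and platelet lineages, stood at 77.77 in WT 1 and 63.99 in KO 1, at 0 in WT 2 and at 0.827, a single read, in KO 2. Slfnl1, a distant relative on chromosome 4, stood at 87.84 in WT 2 and 65.35 in KO 2 and was listed at 0 in WT 1 and KO 1. None of these genes separated the labelled groups. Their log2 differences in limma-trend were -2.62 ± 2.82 (SE) for Slfn10-ps, 0.30 ± 3.34 for Slfn14 and -0.21 ± 3.49 for Slfnl1. edgeR gave 0.08, -0.23 and -0.40 in the same order.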
